A study of Mus musculus with 6 samples.

Results

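The clustered protocadherin genes were taken as the protein-coding genes on chromosome 18 of GENCODE vM21 (mm10) with a symbol that begins with Pcdha, Pcdhb or Pcdhg. This gave 57 genes of 21938 protein-coding genes on chromosomes 1 to 19, X and Y. The Pcdha cluster held 14 (chr18:36930184-37187661), of which 12 were alternate members and 2 were the C-type members Pcdhac1 and Pcdhac2. The Pcdhb cluster held 22 (chr18:37264938-37524479). The Pcdhg cluster held 21 (chr18:37661793-37841873), made of 12 Pcdhga, 6 Pcdhgb and 3 C-type Pcdhgc members. All lie on the plus strand. GENCODE gives the symbol Pcdha11 to 2 genes, and the upstream gene, which starts at position 37005203, is called Pcdha10 here after RefSeq.

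Binding of DPPA4 was mapped by CUT&RUN, in which an antibody-guided nuclease releases the DNA fragments around a bound protein, in mouse embryonic stem cells (mESCs) of a BL6/129 hybrid background grown in FBS/LIF. The line, made from KH2 cells per the study's methods, carried EHMT2-dTAG with an mCherry reporter, so that the H3K9 methyltransferase EHMT2 is degraded on addition of dTAG, and MERVL-GFP, a reporter under the promoter of an endogenous retrovirus. Every library came from cells held in dTAG for 72 h, so EHMT2 depletion was shared by both groups and no untreated group was analysed here. Live cells were sorted into GFP-negative mESCs and GFP-positive 2-cell-like cells (2CLCs), with 2 DPPA4 libraries each. GFP marks activity of the MERVL promoter, which defines the 2CLC group by its reporter alone. The 1 IgG library of GFP-negative cells and the 1 of bulk cells were not used. Each deposited peak list pools the 2 libraries of its group, so values have no replicate error, a difference between lists cannot be tested, and all comparisons below are descriptions. These are called the mESC list (GFP-negative cells), with 83602 peaks on these chromosomes, and the 2CLC list (GFP-positive cells), with 54642. The study's methods state a sequencing target per sample, but the number of reads that entered each list is not given in the sources used here, and the number of peaks rises with depth.

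Clustered protocadherins are cadherin-like receptors on the neuronal surface, and the combination a neuron displays gives it an identity by which its own branches recognise each other. Each Pcdha and Pcdhg member has a long variable exon with its own promoter, which is spliced to constant exons shared by the whole cluster that encode the common cytoplasmic end. Pcdhb members are single-exon genes without constant exons. Alternate members are chosen at random through promoters bound by CTCF and cohesin at a conserved element, whereas C-type members are expressed more constantly. DPPA4 is a chromatin protein of pluripotent cells and early embryos.

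The Pcdhg cluster was densely occupied in both cell states, the Pcdhb cluster was occupied mainly towards the 3′ end of its coding exons, and the Pcdha cluster had the fewest peaks of the 3. Within the 3 clusters and 20 kb flanks, the mESC list held 86 peaks and the 2CLC list 83. Density was 10.5 peaks per 100 kb in the mESC list, 3.43 times its genome-wide density, and 10.2 per 100 kb in the 2CLC list, 5.07 times its own. The Pcdhg cluster held 48 mESC and 43 2CLC peaks, or 21.8 and 19.5 per 100 kb. The Pcdhb cluster held 24 and 22 peaks, or 8.01 and 7.34 per 100 kb. The Pcdha cluster held 14 and 18, or 4.71 and 6.05 per 100 kb. Relative to the genome-wide density of the same list, these were 7.11 and 9.75 times for Pcdhg, 2.61 and 3.66 for Pcdhb and 1.53 and 3.02 for Pcdha. The median −log10 q of the peaks stood at percentile 65.6 of the mESC list and 60.6 of the 2CLC list for Pcdhg, 47.1 and 50.6 for Pcdhb, and 40.8 and 53.3 for Pcdha. Peaks covered 21.5% of the bases of the Pcdhg cluster in the mESC list and 21.2% in the 2CLC list, against 2.53% and 2.10% of the genome. By the same rule the Hox clusters, another set of tandem developmental genes, held 16.8 and 11.3 peaks per 100 kb, the Vmn1r pheromone receptor clusters 0.940 and 1.52, and the olfactory receptor clusters of chromosome 7 held 1.03 and 1.05. Of 2737 windows of 1 Mb, that at chr18:37000001-38000000 ranked 197 in the mESC list with 96 peaks and 108 in the 2CLC list with 82, beside medians of 15 and 11.

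Where peaks of the lists overlapped by 1 bp or more they were merged, which gave 98 regions in the clusters. Of these, 63 (64.3%) held peaks of both lists and are called common, 18 (18.4%) held mESC peaks alone and 17 (17.3%) 2CLC peaks alone. This split depends on the length of the lists, since with the mESC list cut to the number of peaks of the 2CLC list there were 55 common, 12 mESC-specific and 26 2CLC-specific regions. Over the whole genome, 35.0% of 99695 regions were common, 46.7% mESC-specific and 18.4% 2CLC-specific. These regions outnumber the DPPA4 sites that the study reports in total, so they are not the study's own set. The clusters differed in this split. In Pcdhg, 37 of 47 regions (78.7%) were common, 7 mESC-specific and 3 (6.38%) 2CLC-specific. In Pcdhb, 17 of 29 (58.6%) were common, 7 mESC-specific and 5 2CLC-specific. In Pcdha, 9 of 22 (40.9%) were common, 4 mESC-specific and 9 (40.9%) 2CLC-specific. Summits of the lists lay close together in common regions of Pcdhb (median gap 29 bp) and Pcdhg (49 bp) and further apart in Pcdha (253 bp). The summit of a common region was taken as the midpoint between the strongest summits of both lists, and it can lie away from each. By position, 33 regions had the summit within 500 bp of a member's 5′ end and 39 in a member's long coding segment. There was 1 in a constant exon, 1 at the promoter of a neighbouring gene and 24 elsewhere. The Pcdha11 region was thus counted in the coding segment, from summits at −35 bp (mESC list) and 1884 bp (2CLC list).

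**Figure D1:**
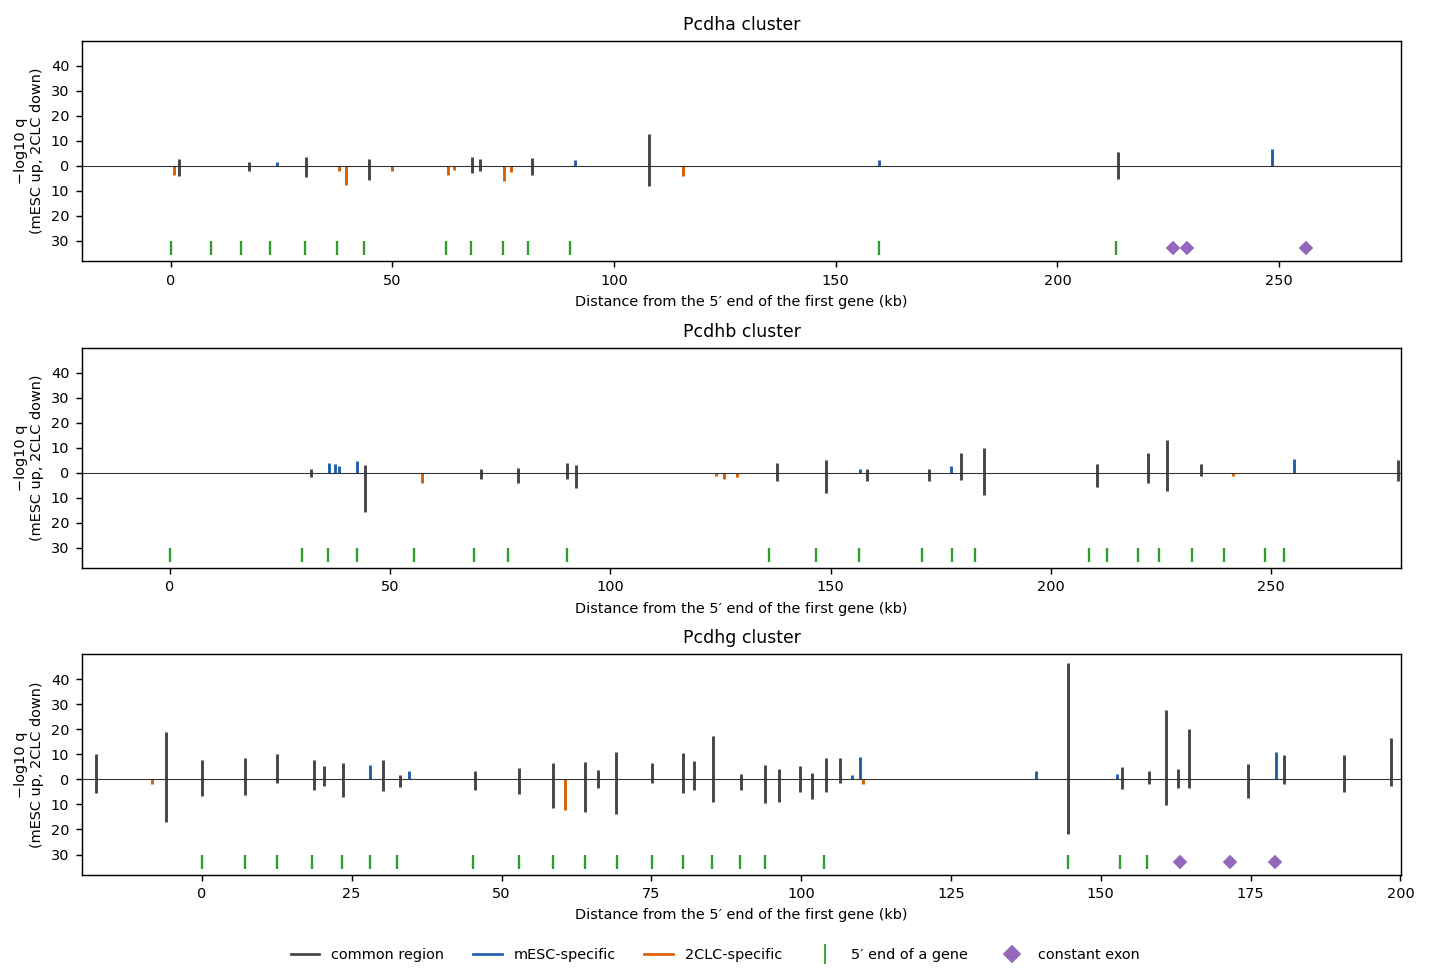
DPPA4 regions along each cluster with its flanks: the x axis is the distance in kb from the 5′ end of the first gene, and lines rise to the −log10 q of the mESC peak and fall to that of the 2CLC peak. Colours give common and list-specific regions, ticks the 5′ ends of genes and diamonds the constant exons. The line that rises to 46.4 and falls to 21.7 stands at Pcdhgc3.

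Promoters, taken as 500 bp either side of a gene's 5′ end, differed most between the clusters. All 21 Pcdhg promoters carried a peak in the mESC list and 20 of 21 did in the 2CLC list. Only 6 of 22 Pcdhb promoters carried an mESC peak and 2 of 22 a 2CLC peak. In Pcdha these counts were 5 and 9 of 14. Over all members, 32 of 57 promoters (56.1%) were called in the mESC list, beside 63.4% of all protein-coding genes. In the 2CLC list 31 (54.4%) were called, beside 54.9% of all genes. The share over all members was therefore near the background, while that of Pcdhg was above it and that of Pcdhb below it in both lists. Promoters called in both lists numbered 26. There were 6 members called in the mESC list alone, where the background over all genes was 10.4%, and 5 called in the 2CLC list alone, where it was 1.89%. The remaining 20, of which 16 were Pcdhb and 4 Pcdha members, had a promoter peak in neither list.

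**Figure D2:**
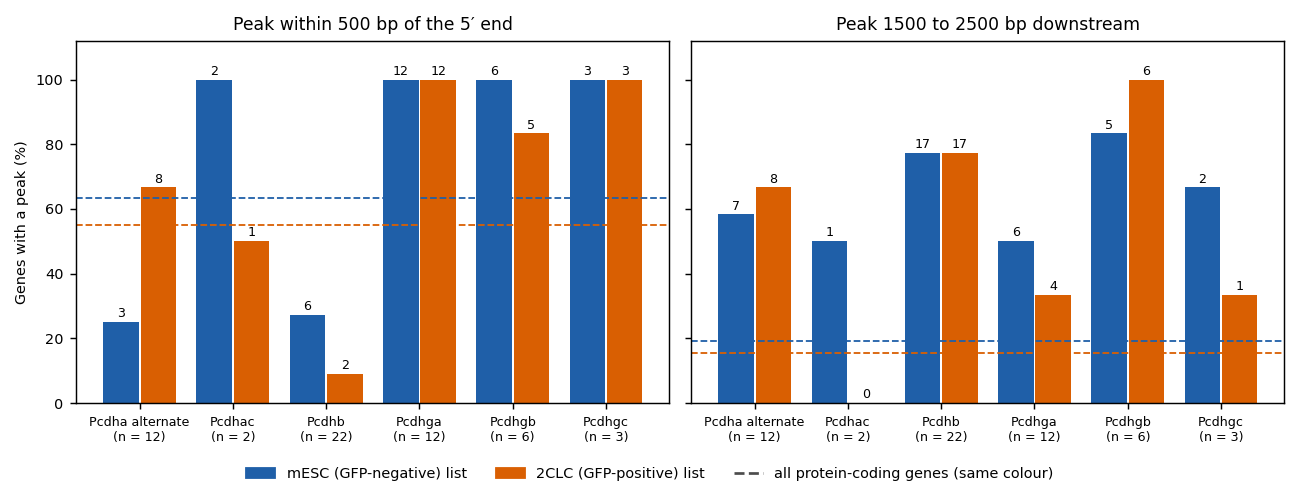
Share of genes (%) of each protocadherin subfamily with a DPPA4 peak within 500 bp of the 5′ end (left) and 1500 to 2500 bp downstream of it (right), with the number of genes above each bar. Dashed lines give the share over all protein-coding genes in the list of the same colour. Pcdhga, Pcdhgb and Pcdhgc bars stand above the promoter lines, and Pcdhb bars stand below them on the left and above on the right.

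Pcdhgc3, a C-type gamma member, had the strongest peak of the clusters in both lists. Its fold enrichment, the summit signal over the local background estimated by the authors' caller, was 18.4 in the mESC list and 10.8 in the 2CLC list. The −log10 q, the caller's adjusted significance, was 46.4 and 21.7, higher than in about 96.6% and 91.9% of the peaks of the respective list. Both summits lay just upstream of the 5′ end (at −7 and −15 bp), in a common region at chr18:37805807-37809109. Fold and −log10 q depend on depth and are ranked only within a list. The other gamma C-type members were weaker. Pcdhgc4, which serves neuronal survival, had fold 5.39 in the mESC list and 4.77 in the 2CLC list, with summits 293 and 242 bp downstream. Its annotated 5′ end lies 454 bp before its coding segment, so both summits lay before that segment. Pcdhgc5, the last variable gene before the constant exons, had fold 4.11 with a summit at −14 bp in the mESC list and fold 3.56 in the 2CLC list, where the summit lay 812 bp downstream.

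Among the alternate gamma members, Pcdhga10 had the highest −log10 q in the mESC list, 17.6 with fold 10.5. In the 2CLC list its peak had −log10 q 9.12 and fold 7.17, and that of Pcdhga11 9.33 and 6.41. Pcdhgb5 had −log10 q 10.9 and 13.6 in the mESC and 2CLC lists, in peaks that spanned 2596 and 2744 bp from the promoter into the coding exon. Pcdhgb6 (10.7, fold 5.60) and Pcdhga3 (10.2, fold 5.77) followed in the mESC list. In the 2CLC list Pcdhga3 passed the threshold narrowly, with −log10 q 1.43. Pcdhga8 (12.9, fold 8.51) and Pcdhgb4 (11.3, fold 7.52) stood high in the 2CLC list, beside 6.86 and 6.43 in the mESC list. Pcdhgb2 was the gamma member called in the mESC list alone, with fold 4.88, −log10 q 5.67 and a summit at −5 bp. Its coding segment carried peaks of both lists. Over the 21 Pcdhg promoters in the mESC list, fold ran from 2.69 to 18.4 with a median of 5.60, and over the 20 in the 2CLC list from 2.61 to 10.8 with a median of 4.63. The median summit lay at −7 bp in the mESC list and at 7 bp in the 2CLC list, and each promoter peak had its summit in sequence present at a single copy in the genome.

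In Pcdhb the median −log10 q of the few promoter peaks stood at percentile 42.7 of the mESC list and 44.6 of the 2CLC list. Pcdhb8 was the member with a summit at its promoter in both lists, at −47 bp with fold 4.74 in the mESC list and −38 bp with fold 4.09 in the 2CLC list. Pcdhb3, Pcdhb4, Pcdhb11 and Pcdhb13 were called in the mESC list alone. Their folds were 4.50 for Pcdhb3, 5.22 for Pcdhb4, 3.03 for Pcdhb11 and 3.81 for Pcdhb13, and their −log10 q values ran from 1.57 at Pcdhb11 to 4.57 at Pcdhb4. Pcdhb12 was called in both lists by wide peaks of 2693 and 2200 bp whose summits lay 2074 and 1471 bp into the gene. Counting summits instead of overlap left 5 Pcdhb promoters in the mESC list and 1 in the 2CLC list.

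Peaks of Pcdhb stood instead about 2 kb downstream of the 5′ end. The window from 1500 to 2500 bp downstream, chosen after the summits had been seen, was called in 17 of 22 Pcdhb members in each list. Over all members, 38 of 57 windows (66.7%) were called in the mESC list, beside 19.1% of all protein-coding genes. In the 2CLC list 36 (63.2%) were called, beside 15.6%. In both lists 15 Pcdhb members were called. Pcdhb3 and Pcdhb22 were called in the mESC list alone and Pcdhb5 and Pcdhb20 in the 2CLC list alone. Of the summits of Pcdhb between 1 kb upstream and 3.5 kb downstream of a 5′ end, 18 of 23 in the mESC list and 16 of 18 in the 2CLC list fell in this window. Their medians lay 2098.5 bp and 2059.5 bp from the 5′ end, near the end of a coding segment that stopped at a median of 2557.5 bp.

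The downstream peaks of the following beta members were picked by strength after their values had been seen. Pcdhb4 had fold 9.67 and −log10 q 15.8 in the 2CLC list, the highest of the cluster in that list, and fold 4.03 with −log10 q 2.89 in the mESC list, where the summit lay 431 bp further upstream. Pcdhb18 had fold 8.55 and −log10 q 13.2 in the mESC list and 5.67 and 7.45 in the 2CLC list. Pcdhb14 had fold 7.42 and 6.56, with summits at 2174 and 2155 bp. Both summits of Pcdhb19 fell on the same base, 2123 bp downstream, in sequence with a median of 4 genomic copies. Pcdhb10 had fold 4.83 and 6.78. Pcdhb1, which stands alone at the upstream end of its cluster, had no peak at its promoter or coding segment in either list. Neither did Pcdhb16 and Pcdhb21, nor Pcdha2 in the alpha cluster. These 4 were the members without a peak at either place in either list.

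**Figure D3:**
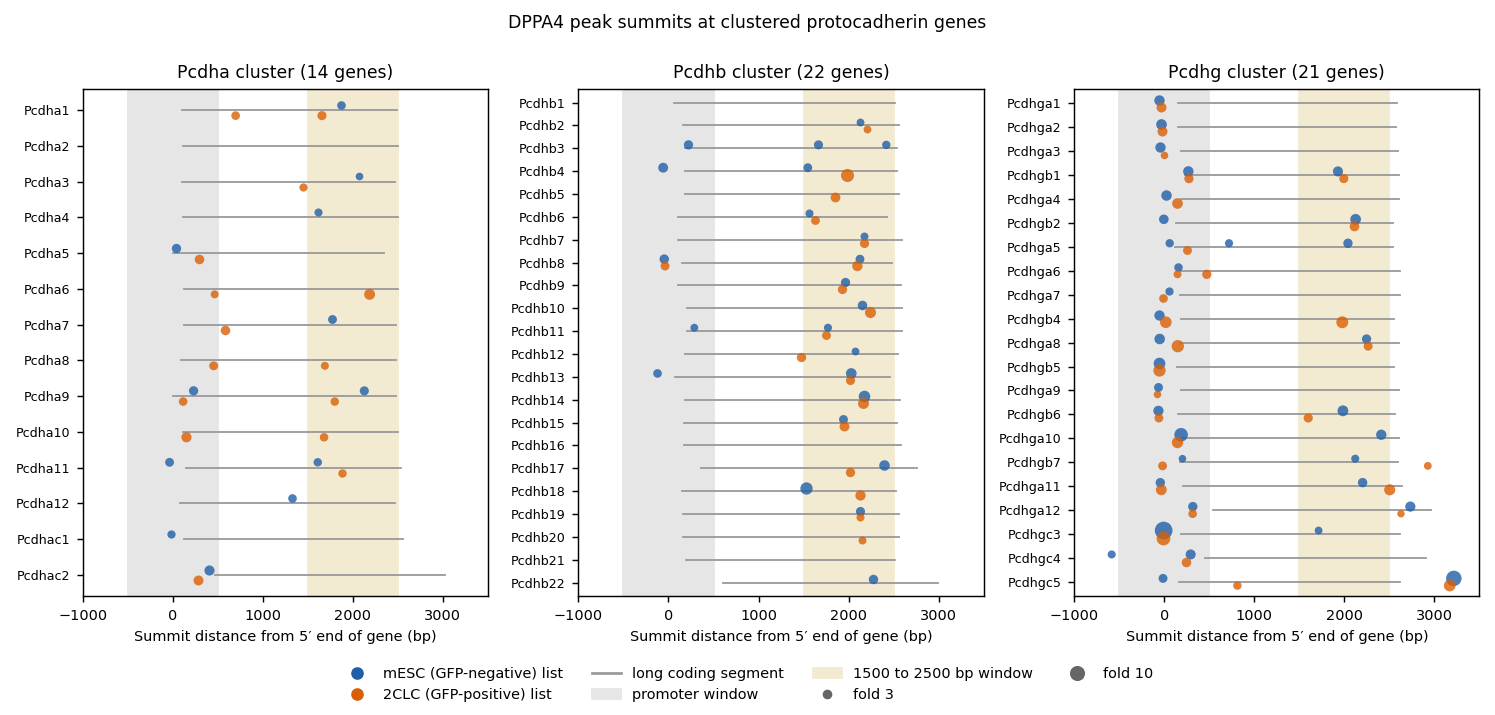
Summits of DPPA4 peaks relative to the 5′ end of each of the 57 genes (x axis, bp; y axis, genes in genomic order), with the area of a point growing with fold enrichment. Grey lines give the long coding segment. Pcdhg points stack at the 5′ end in both lists, 18 mESC and 16 2CLC Pcdhb points fall between 1500 and 2500 bp, and Pcdha points are spread along the coding segment.

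The called alpha promoters were of middling strength, with a median −log10 q at percentile 49.5 of all peaks of the mESC list and 54.3 of the 2CLC list. In the mESC list Pcdha5 and Pcdha9 each had fold 4.50 and −log10 q 3.71, and Pcdha11 had fold 4.01 and −log10 q 3.21. The annotated 5′ ends of Pcdha5 and Pcdha9 coincide with the start of their coding segments. Their mESC summits, at 41 and 232 bp, thus lay in coding sequence. Pcdhac2, the C-type member next to the alpha constant exons, had the highest value, fold 5.46 with −log10 q 5.49, and in the 2CLC list fold 5.24 with 5.19. Pcdha5 had fold 4.86 and −log10 q 4.30 in the 2CLC list. Pcdhac1 was called in the mESC list alone, with fold 3.39, −log10 q 2.17 and a summit at −17 bp. Members called in the 2CLC list alone were Pcdha1, Pcdha6, Pcdha7, Pcdha8 and Pcdha10, all alternate members. Pcdha10 had fold 5.53 and −log10 q 6.10 with a summit 153 bp downstream. The summits of the other 4 lay further inside the gene, at 699 bp for Pcdha1, 466 bp for Pcdha6, 583 bp for Pcdha7 and 455 bp for Pcdha8, with folds of 3.82, 3.11, 4.79 and 4.10. The summits of Pcdha6 and Pcdha8 were thus inside the promoter window, while the peaks of Pcdha1 and Pcdha7 reached into it from the coding exon. With summits counted instead of overlap, 6 Pcdha promoters were called in the 2CLC list and 5 in the mESC list.

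Alternate alpha exons share stretches of sequence with one another. Reads with several equal matches were placed at random among them, which bears on which member a peak is assigned to. The longest stretch an alternate alpha gene shared with another member had a median of 188 bp and reached 271 bp between Pcdha10 and Pcdha11. At the C-type members of all clusters it was 20 to 25 bp. The 2CLC summit of Pcdha5 had a median of 9 genomic copies, and those of Pcdha6 and Pcdha7 had 2. The summits at Pcdha1, Pcdha8 and Pcdha10 were single-copy. Counting only peaks with single-copy summits left 5 alpha promoters in the mESC list and 6 in the 2CLC list. The same restriction left 13 and 12 Pcdhb downstream windows, and 21 and 20 Pcdhg promoters. It lowered the alpha downstream windows from 8 to 5 in the mESC list and from 8 to 4 in the 2CLC list.

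Gamma subfamilies differed in the downstream window. It was called in 5 of 6 Pcdhgb members in the mESC list and 6 of 6 in the 2CLC list, and in 6 and 4 of the 12 Pcdhga members. Of the 3 Pcdhgc members, 2 were called in the mESC list and 1 in the 2CLC list. Some calls came from wide peaks with promoter summits, at −56 and −55 bp for Pcdhgb5 and, in the 2CLC list, −19 bp for Pcdhgb7. The same held for Pcdhga6 in the mESC list (154 bp), and for Pcdhga10 (138 bp) and Pcdhgc3 (−15 bp) in the 2CLC list. The mESC call of Pcdhgc5 came from a peak with its summit at 3216 bp, past the window. With summits counted instead, Pcdhg downstream windows fell from 13 to 9 in the mESC list and from 11 to 5 in the 2CLC list. Pcdhgb4 was the member called in the 2CLC list alone, with fold 7.94 and −log10 q 12.0 at 1977 bp in a 2366-bp peak. Pcdhgb1 and Pcdhgb2, which shared a stretch of 290 bp with each other, had downstream summits in sequence with 2 genomic copies in the mESC list. The coding segment of any member, a single stretch of 2316 to 2562 bp, carried a peak in 48 of 57 members in the mESC list, beside 39.5% of the 724 coding segments of 2000 bp or more in the genome. In the 2CLC list 47 did, beside 36.7%. For the 667 long segments of other genes alone the shares were 35.7% and 32.8%. Member segments begin near the 5′ end, so a promoter peak that reaches into the segment is counted here. A summit inside the segment was found in 35 (mESC list) and 36 (2CLC list) of the 57 members, and in 189 and 184 of the 667 others. In Pcdhg it was found in 10 of 21 members in each list. With each segment cut into 3 equal parts, only the summit with the highest −log10 q inside it was placed. The part nearest the 3′ end held 22 of these 35 member summits in the mESC list and 21 of 36 in the 2CLC list. In other long segments it held 37.0% and 38.6% of such summits. For Pcdhb these counts were 12 of 17 and 14 of 17, and for Pcdhg 7 of 10 and 5 of 10. For Pcdha they were 3 of 8 (37.5%) and 2 of 9 (22.2%), near or below the share in other long segments.

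The constant exons carried few peaks. None of the 3 alpha constant exons was called in either list, and the nearest peak lay 6078 bp from constant exon 3 in the mESC list and 11798 bp from constant exon 1 in the 2CLC list. Of the 3 gamma constant exons, 2 were called in the mESC list. Constant exon 1 (chr18:37825021-37825079) carried a peak of fold 4.53 and −log10 q 4.11, and constant exon 3 (chr18:37839903-37841873), which holds the shared 3′ UTR, one of fold 6.19 and −log10 q 10.8. None was called in the 2CLC list, where the nearest peaks lay 20, 2279 and 96 bp from exons 1, 2 and 3. Over both clusters 2 of 6 constant exons were thus called in the mESC list, beside 12.0% of exons other than the first over all protein-coding genes, and 0 of 6 in the 2CLC list, beside 9.42%. The exons compared were not matched for length, and a long exon, such as gamma constant exon 3 with 1971 bp, meets the overlap rule more readily. At exon 1 the mESC peak was part of a common region (chr18:37823698-37825444) whose 2CLC peaks lay 20 bp or more from the exon. At exon 3 the mESC peak, with its summit inside the exon, was an mESC-specific region (chr18:37840193-37841580) without a 2CLC counterpart. The 2CLC peak 96 bp away, with −log10 q 1.92, belonged to the next region downstream (chr18:37841877-37843139), which was common and reached 9.86 in the mESC list.

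Several of the strongest regions had their summits outside the promoters, coding segments and constant exons of the members. A common region at chr18:37821354-37823489, with −log10 q 27.9 in the mESC list and 10.2 in the 2CLC list, had its summit 3193 bp downstream of the 5′ end of Pcdhgc5, past the end of its coding segment. The next, at chr18:37825605-37826934, lay between gamma constant exons 1 and 2 with −log10 q 20.05 and 3.46. A common region at chr18:37655058-37656525, upstream of the gamma cluster, reached 18.8 and 17.0, with its summit 6060 bp before Pcdhga1 in an exon of the noncoding gene 3222401L13Rik. mESC-specific regions of Pcdhg were led by that in constant exon 3, a region at chr18:37770585-37771745 downstream of Pcdhga12 (−log10 q 9.09) and that at the Pcdhgb2 promoter. 2CLC-specific regions of Pcdhg were the Pcdhgb4 coding region and a pair of weak ones with −log10 q 1.88 and 1.87.

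In Pcdhb the common regions with the highest −log10 q in either list were the coding regions of Pcdhb4 (15.8, 2CLC list), Pcdhb18 (13.2, mESC list) and Pcdhb14 (9.93, mESC list). In the mESC list the Pcdhb4 region had only 2.89, and that of Pcdhb17 (7.81) followed Pcdhb14. Its mESC-specific regions were led by the Pcdhb22 coding region (−log10 q 5.34) and the promoters of Pcdhb4 and Pcdhb3. The 2CLC-specific ones were led by the Pcdhb5 coding region (4.30), and 3 others lay upstream of Pcdhb9, with summits from −11954 to −7083 bp, in sequence with medians of 587 to 731.5 copies. In Pcdha the common region with the highest value, at chr18:37037427-37038449 between Pcdha12 and Pcdhac1, had −log10 q 12.8 and 8.09 at a summit with a median of 504.5 copies, so which copy was occupied is unknown. By the higher value of either list, Pcdhac2 (5.49 in the mESC list and 5.19 in the 2CLC list) and Pcdha7 (2.89 and 5.46) came next. In the mESC list the regions of Pcdha5 and Pcdha9, each with 3.71, stood above that of Pcdha7. The mESC-specific region with the highest value in Pcdha (chr18:37178305-37178868, −log10 q 6.74) lay between constant exons 2 and 3, in an exon of the antisense transcript Gm10544. It was followed by those of Pcdhac1 and Pcdha12. The 2CLC-specific regions of Pcdha were led by the coding regions of Pcdha6 (7.71), the promoter of Pcdha10 (6.10) and a region at chr18:37045245-37046046 with a median of 48 copies (4.14). Enhancers of the alpha cluster are known between and beyond its constant exons, and whether these regions coincide with them was not tested.

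Base composition followed the clusters. CpG observed over expected, the number of CpG sites relative to that given by the C and G content, had a median of 0.682 in the 1-kb promoter windows of Pcdha, 0.378 in Pcdhb and 0.594 in Pcdhg, and 0.552 over all genes. In the window 1500 to 2500 bp downstream it was 0.645 in Pcdha, 0.482 in Pcdhb and 0.396 in Pcdhg, against 0.195 over all genes. By this ratio Pcdhb was the cluster whose downstream window was higher than its promoter. By the number of CpG sites both Pcdhb (median 40 against 15) and Pcdha (53 against 35.5) had more downstream. Within Pcdhb the downstream windows called in the mESC list had a median ratio of 0.486 and those not called 0.444, while in the 2CLC list the values were 0.478 and 0.486. Pcdhgb members, most of them called downstream, had 0.746 there and Pcdhga members 0.309. Within Pcdhg, the 13 windows called in the mESC list had a median of 0.650 and the 8 not called 0.318. Within Pcdha the promoters hardly differed, with 0.681 for the 5 called and 0.685 for the 9 not called in the mESC list. Over all genes, called promoters had 0.715 and those not called 0.174. The letters CGCT, the core of the conserved promoter element at which CTCF binds, were present on either strand in the 300 bp before the 5′ end in 55 of 57 members, and in 63.4% of all genes. Pcdhb22 and Pcdhga12, whose annotated 5′ ends lie 610 and 537 bp before their coding segments, lacked them there. So short a match does not show that the whole element is present. Since nearly all members held these letters, they could not separate promoters with a peak from those without.

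**Figure D4:**
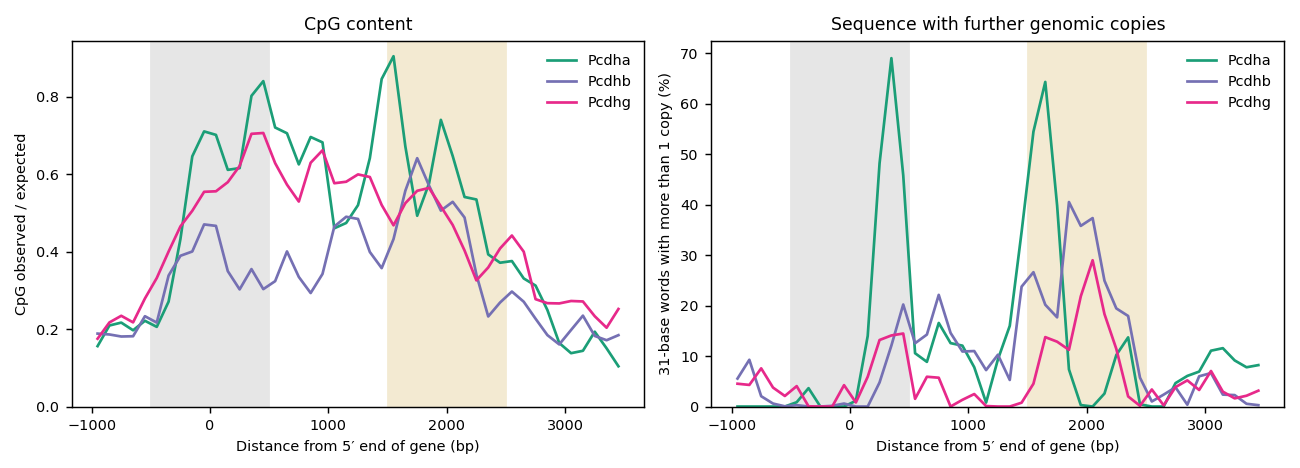
Mean CpG observed over expected (left) and mean share of 31-base words found more than once in the genome (right, %) in 100-bp bins along the genes of each cluster, against the distance from the 5′ end in bp. Grey marks the promoter window and tan the window 1500 to 2500 bp downstream. Pcdhb has its highest CpG value inside the tan window, and Pcdha has peaks of repeated words in the bins that begin at 300 and 1600 bp.

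Genes related to the clusters by family or function were counted by the same promoter rule. Of 12 non-clustered protocadherins, 7 were called in the mESC list and 6 in the 2CLC list, beside 63.4% and 54.9% of all genes. Pcdh1, Pcdh8, Pcdh9, Pcdh17 and Pcdh19 were called in both, Pcdh15 and Pcdh20 in the mESC list alone and Pcdh7 in the 2CLC list alone. Of 15 genes listed as regulators of protocadherin promoters, the same 13 (86.7%) were called in each list, beside 63.4% and 54.9% of all genes. These shares of all genes also apply to the sets below. Among the 13 were Ctcf (−log10 q 41.8 and 36.3) and the cohesin genes Rad21 and Smc3. Smchd1, which represses the clusters, had 35.9 and 11.1, while Stag1 and Trim28 were called in neither. Of 10 genes for partners of the cytoplasmic domain, 9 (90%) and 8 (80%) were called, with Fyn called in the mESC list alone. Of the 4 neighbouring genes within the flanks, Taf7 (10.1 and 5.46) and Gm37388 were called in both lists, and Gm37013 in the 2CLC list alone. Gm37388 and Gm37013 begin inside the alpha cluster. The peak of Gm37013 was that in the coding segment of Pcdha6, with its summit 2187 bp into that gene. The peaks of Gm37388 were those of Pcdha7, with summits 1773 bp (mESC list) and 583 bp (2CLC list) into that gene. For comparison, 23 of 39 Hox promoters (59.0%) were called in each list, and 1 of 244 olfactory receptor promoters on chromosome 7.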

How the data were processed

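The deposited lists were 2 MACS2 peak files, each pooled by the authors over the 2 DPPA4 libraries of a group. Per the study's methods, fragments were aligned with STAR so that a read with several equal matches was placed at random, duplicates and blacklisted regions were removed, and peaks were called on whole fragments. The submitters' processing notes give STAR 2.7.10, Picard 2.26.0, SAMtools 1.14, bedtools 2.30.0 and MACS2 2.2.6 on mm10. Whether IgG served as control is not given in the sources used here. The deposited fold enrichment is the authors' ratio at the summit, the deposited −log10 q is the authors' adjusted significance (lowest value 1.30, a q-value of 0.05), and the deposited summit position is an offset in bp. Other deposited columns (score and p-value) were not used.

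Python 3.11.15, numpy 2.4.6, pandas 2.3.3 and matplotlib 3.10.9 were used. Peak ends were checked against GRCm38.p6 chromosome lengths. A promoter or exon was called when a peak shared at least 1 bp with it. Constant exons were exons carried by at least 3 members. Genomic copies are the median number of occurrences, on either strand, of the 31-base words within 100 bp of a summit. Interval code was tested on simulated data. No sequence of these loci is printed.

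Each list pools its replicates, so no test was made, and the reads that entered each list are not given in the sources used here. Members and gene lists were chosen with earlier results of these data known. Named were all C-type members and Pcdhb1, in each cluster and list the 5 members with the highest promoter −log10 q and those called in 1 list alone, genes of the related lists whose call differed and up to 5 others, and the 3 strongest regions of each class and cluster. For common regions the higher −log10 q of either list was used, although such values are not comparable between lists. Genes outside this rule were picked after their values were seen. A gene of the related lists is not reported here. Alternatives were stricter or equal-sized lists, other windows, flanks and overlap rules, and single-copy summits.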

Additional observations from a re-analysis of the deposited data

How the results depend on the processing

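No paired analysis was possible because each list pools its replicates, and leaving out each replicate was not run for the same reason. Of 145 values under an alternative, 81 stayed within 1.5 times the reported one. With −log10 q of at least 5, common regions fell to 22 and 2CLC-specific ones to 10, while mESC-specific ones numbered 19. Density fell to 5.14 (mESC list) and 3.92 (2CLC list) peaks per 100 kb. Promoters called in the mESC and 2CLC lists were then 1 and 3 in Pcdha, 0 and 0 in Pcdhb, and 16 and 12 in Pcdhg. Downstream windows were 1 and 2 in Pcdha, 6 and 6 in Pcdhb and 7 and 6 in Pcdhg, with 1 mESC constant exon. With at least 10, regions were 4 common, 9 mESC-specific and 4 2CLC-specific, at 1.59 and 0.979 peaks per 100 kb. Promoters were 0 and 0 in Pcdha, 0 and 0 in Pcdhb and 5 and 4 in Pcdhg, downstream windows 0 and 0, 1 and 1, and 2 and 3, with 1 mESC constant exon. With the 10000 strongest peaks of each list, regions were 1, 1 and 6, at 0.245 and 0.857 peaks per 100 kb. Promoters were 0 and 0 in Pcdha and Pcdhb and 1 and 4 in Pcdhg, downstream windows 0 and 0, 0 and 1, and 1 and 3, with 0 mESC constant exons. Few of these peaks thus rank among the strongest of the genome. The same number of peaks is a larger share of the shorter 2CLC list, so these counts are not compared between lists.

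With the mESC list cut to the size of the 2CLC list, mESC-specific regions fell to 12, 2CLC-specific regions rose to 26 and Pcdha mESC downstream windows fell to 4. With common regions limited to summits within 200 bp, list-specific regions numbered 38 (mESC) and 36 (2CLC). Single-copy summits alone gave 11 2CLC-specific regions and 5 and 4 Pcdha downstream windows. The Pcdhb 2CLC promoters were 1 within 250 bp or by summits. Constant exons were 1 by summits in the mESC list and 2 within 500 bp in the 2CLC list. Pcdhg 2CLC downstream windows were 5 by summits. The cause of these moves was not tested beyond the loss of peaks that a stricter list brings. Windows downstream, and their alternatives, were chosen after seeing the data. With pooled lists whose read numbers are not given, a missing peak does not show that DPPA4 was absent.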

Other observations

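Pcdhgb8 (chr18:37761801-37841870) stands among the gamma genes but is annotated as a polymorphic pseudogene and was left out of the 57. Its promoter carried a peak in both lists, with fold 4.30 in the mESC list and 4.25 in the 2CLC list and both summits on the same base, 145 bp upstream of the 5′ end. Its downstream window was also called in both lists, with fold 4.08 at 1823 bp in the mESC list and 6.48 at 1840 bp in the 2CLC list. It thus carried peaks at both places where its Pcdhgb relatives did.

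Beyond the 20 kb flanks, a common region at chr18:37217736-37218843, in single-copy sequence past the end of the alpha cluster and before Pcdhb1, had −log10 q 9.46 in the mESC list and 7.49 in the 2CLC list, with summits 24 bp apart. A common region at chr18:37629557-37631469, before the gamma cluster, had −log10 q 45.0 and 32.9 at a summit with a median of 2268 genomic copies.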
